A study of Mus musculus with 14 samples.

Results

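SiglecF-positive, CD11c-positive lung cells with high MHC class II (MHCII), taken 2 weeks after bleomycin, were compared gene by gene with MHCII-low cells of the same gate from control mice. The comparison used 5 of the 14 RNA-seq libraries of the study, 3 of 2-week MHCII-high cells (replicates 1, 2 and 3) and 2 of control MHCII-low cells (replicates 1 and 3). Genes entered when they had at least 10 normalized counts in at least 2 of these 5 libraries, which kept 15805 of 43432 genes. All mice were male, of the strain 129S1 and 10 to 12 weeks old, and were given either bleomycin (3 U/k, as the labels write it) or, in the control group, water through the trachea. Bleomycin is a DNA-damaging drug that injures the lung and is used to model fibrosis. Lungs were perfused, digested with collagenase, dispase and DNase, and the cells were sorted on 1 of 2 sorter models, which the labels do not tie to samples. Messenger RNA was captured on beads, amplified as whole transcriptome and tagged by transposase, without molecular identifiers. Treatment and MHCII level both differed between the groups, and none of the 14 libraries held MHCII-high cells of control mice. The effects of treatment and of MHCII level therefore cannot be told apart in this comparison. MHCII-low cells 2 weeks after bleomycin (3 libraries) are given beside the results as a further population that shares the treatment of one group and the sort gate of the other. The labels do not say whether replicates came from separate mice, so p-values measure the spread between libraries only, estimated over all 14.

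Alveolar macrophages live on the surface of the air sacs, clear surfactant and debris, and depend on GM-CSF and the lipid-sensing factor PPAR-gamma. In the mouse they are marked by the lectin SiglecF, which binds sialic acid, together with the integrin chain CD11c. In the healthy lung they carry little MHCII, the molecule that shows peptides to helper T cells. After injury, blood monocytes enter the air sacs and take on macrophage features, and such cells are known for matrix-remodelling genes. In sorted bulk samples a lower level of a gene can mean fewer cells that express it or less RNA per cell, and these cannot be told apart.

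Recovered read totals were 47015874 to 79446667 in the MHCII-high libraries and 45064649 and 88059595 in the controls, and 15770506 to 64622823 in the 2-week MHCII-low libraries. Values are normalized counts, in which 1 read was worth 0.390 to 0.869 in the 5 libraries, and 2.24 in the shallowest library named here, 2-week MHCII-low replicate 1, whose low values are coarser. Mitochondrial ribosomal RNA took 22.5% to 26.2% of the reads in MHCII-high libraries and 21.7% and 24.1% in controls, but 3.42% to 18.3% in 2-week MHCII-low libraries. With that share as a covariate 828 genes differed between MHCII-high and control cells, and its part in differences from the 2-week MHCII-low cells was not tested. Spearman correlations over all tested genes were 0.944 to 0.974 within the MHCII-high and the control group and 0.917 to 0.939 between them.

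Of the 15805 genes, 836 passed an adjusted p of 0.05 (5.29%), 639 of them higher (4.04%) and 197 lower (1.25%) in MHCII-high cells than in controls. The test was limma on log2(normalized counts + 1), fitted to all 14 libraries with 1 mean per group so that the spread was shared, with p-values adjusted by the Benjamini-Hochberg method, and a gene past the threshold is said to have risen or fallen. At least 2-fold changes were found for 526 higher and 116 lower genes, and at least 16-fold changes for 184 higher and 14 lower genes. These folds include the added 1, which largely sets their size for genes at or near 0 in a group. The lower bounds given below for genes with no control read were not applied to these counts. The libraries of both groups did not overlap for any of the 836 genes, which held for 34.3% of all tested genes. Among genes past the threshold the median log2 fold change was 2.36 for increases and -1.11 for decreases, and over all tested genes it was -0.02. The number of calls rested on both controls: without control replicate 1 it was 464 and without control replicate 3 it was 379. The share of higher genes among the calls, 76.4%, was 65.5% with no filter on low values, 64.9% with voom and 63.9% with edgeR on library totals, a scaling that moved the median of all genes to -0.13. Each of the 836 genes kept its sign in each alternative in which it was tested. Lists of genes by function held 592 genes, of which 550 were tested, and a gene absent from controls could enter only through the MHCII-high libraries, so counts below are of tested members.

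The sort was on MHCII protein, so the class II genes check the labels rather than add a finding. H2-Aa (mm10 chromosome 17, 34282744 to 34287827, reverse strand), the alpha chain of I-A, had 27604, 29833 and 38503 normalized counts in the MHCII-high libraries and 128 and 137 in the controls. The log2 fold change was 7.89 ± 0.37 (SE; limma adjusted p 2.5e-11). Cd74, the invariant chain that escorts class II molecules to the endosome, had 94552, 99133 and 147040.2 against 1013 and 1352 (log2 fold change 6.57 ± 0.37). Every MHCII-high library lay above both controls for these genes, as the plot of levels by library shows. Ciita, the coactivator that switches class II genes on, had 1972, 1822 and 1755 against 38.6 and 52.5 (log2 fold change 5.33, limma adjusted p 6.4e-09). In all, 9 of 11 tested members of the class II list rose and none fell, with a median log2 fold change of 5.33 when H2-Eb2, which had no read in either control, was set at its lower bound. The number that rose was 8 to 10 under other settings, and smaller without at least 1 of the 5 libraries. The mean of H2-Eb2 over the MHCII-high libraries was at least 24.9-fold higher, taking 3 reads in control replicate 3 as the limit. Such bounds below are of the mean too. Reads that H2-Eb2 shares with near-identical class II genes are uncertain. The genes of peptide loading had unlike values. H2-DMb1 rose (log2 fold change 1.96 ± 0.23) and H2-DMb2 rose by 1.31, while H2-DMa, the partner chain of both, had 6994, 6627 and 9194 against 6084 and 4222 (log2 fold change 0.57, limma adjusted p 0.18). H2-Ob, a subunit of the DO modulator of peptide loading, rose by 6.58, and H2-Oa, the other subunit, did not pass the test (log2 fold change 2.01, limma adjusted p 0.39). Leaving out 1 library ended the limma calls of H2-DMb2 (adjusted p 0.087 to 0.26 without MHCII-high replicate 1 or control replicate 3, lost also under 1 other setting) and H2-Ob (0.14 without control replicate 3). Dendritic cell markers, whose cells carry class II too, summed to 1367 to 2821 normalized counts in MHCII-high libraries and 346 and 397 in controls, and their part in the class II values was not tested. H2-Ob had a log2 fold change of 5.16 without control replicate 3 and 8.01 without control replicate 1.

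Class II promoters hold a conserved Y box, a CCAAT motif bound by the factor NF-Y, and the 2 genes with the largest class II increases are shown with it. RefSeq promoter windows (build GRCm38.p6, 250 bases before to 50 after the start) matched 8 of the 11 class II genes. The letters CCAAT or their reverse complement ATTGG were found in 8 of these 8, against 41.1% of the 27025 genes of the promoter table. The longer form CTGATTGG (reverse complement CCAATCAG), which contains ATTGG, was found in 4 of 8 (H2-Aa, H2-Eb1, H2-Eb2 and H2-Oa) against 4.70%. TGACGTCA, which reads the same on both strands, was found in H2-Aa alone of the 8, against 2.03%. These matches are descriptions of the sequence, and 6 motifs were searched and chosen with the matches seen. The windows below are 100 bases around the match, upstream of the RefSeq start of H2-Aa (chr17:34287824-34287923, reverse strand) and of H2-Eb1 (chr17:34305759-34305858, forward strand), 5′ to 3′ along the gene, with CTGATTGG in capitals.
H2-Aa: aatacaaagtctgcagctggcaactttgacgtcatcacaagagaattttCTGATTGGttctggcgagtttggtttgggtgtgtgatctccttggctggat
H2-Eb1: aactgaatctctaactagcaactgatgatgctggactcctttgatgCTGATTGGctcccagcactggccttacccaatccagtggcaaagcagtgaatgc
H2-Eb1, the beta chain of I-E, had 7598, 8016 and 8334 normalized counts in MHCII-high libraries and 23 and 19.8 in controls (log2 fold change 8.48 ± 0.77, limma adjusted p 2.7e-07).

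Class I presentation, which shows peptides to CD8 T cells, held smaller changes. Of 17 tested members 2 rose and none fell, with a median log2 fold change of 0.38. H2-K1, a classical class I heavy chain, had 19746, 19873 and 26089.9 against 13231 and 11857 (log2 fold change 0.79 ± 0.22), and Nlrc5, the class I counterpart of Ciita, had 650.4, 1484 and 559 against 259 and 261 (1.64 ± 0.47). B2m, the shared light chain, did not pass the test (log2 fold change 0.38, limma adjusted p 0.45). Among costimulation genes 3 of 9 rose (0 to 2 without 1 of the 5 libraries, lowest without control replicate 3, 1 with no filter or edgeR on library totals): Cd86 (1.92 ± 0.39), the ligand of CD28, Cd40 (4.47 ± 1.26), the receptor for T cell help, and Lgals9 (0.90 ± 0.23), which encodes galectin-9. Cd274, which encodes the inhibitory ligand PD-L1, did not pass (25862, 25286 and 22438 against 28423 and 53342, limma adjusted p 0.22). Limma lost, when 1 library was left out, the calls of H2-K1 (adjusted p 0.058 to 0.32 without any one of the 5 libraries, lost also under 2 other settings), Nlrc5 (0.067 to 0.28 without MHCII-high replicate 1 or 2 or control replicate 1 or 3, lost also under 4 other settings), Cd86 (0.16 without control replicate 3), Cd40 (0.069 to 0.37 without any one of the 5 libraries, lost also under 3 other settings) and Lgals9 (0.063 to 0.25 without MHCII-high replicate 1 or 3 or control replicate 1 or 3, lost also under 2 other settings).

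The 3 chains of C1q, the recognition unit of the classical complement pathway, were among the largest increases of the whole table. C1qa (mm10 chromosome 4, 136895917 to 136898803, reverse strand) had 1847, 2017 and 3618 normalized counts in the MHCII-high libraries and 3.1 and 0 in the controls. C1qb had 5395, 5071 and 7713 against 12.1 and 1.7, and C1qc had 4056, 4773 and 6897 against 11.3 and 12.9. The controls were low for all 3 genes, and log2 fold changes were 10.20 ± 0.92, 9.97 ± 0.81 and 8.61 ± 0.62 (limma adjusted p 2.6e-07, 6e-08 and 1.1e-08). Also higher were C3ar1, the receptor for the C3a fragment (7333, 5892 and 10970.3 against 142 and 134, log2 fold change 5.81) and C4b, a classical pathway component (1380.5, 1377 and 2824 against 53.4 and 34.4, 5.32), whose reads may be shared with its near-identical neighbour. C5ar1, the receptor for C5a, fell by 1.15 ± 0.17 on the log2 scale (8776, 6392 and 9506 against 18114 and 17802). The list thus held 6 higher and 1 lower gene of 15 tested, with a median log2 fold change of 1.57 (1.16 without control replicate 3, 2.44 without MHCII-high replicate 2, 3.25 with a filter of 5 CPM that left 12 genes), and C3 itself did not pass (0.27, limma adjusted p 0.57). C1qa and C1qb had log2 fold changes of 9.18 and 8.83 without control replicate 3 and 11.2 and 11.1 without control replicate 1.

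Of the genes that mark monocyte-derived and interstitial macrophages, 16 of 23 tested members rose and none fell, with a median log2 fold change of 3.26 (2.47 without control replicate 3 and 4.19 without control replicate 1). The number that rose was 14 to 16 under other settings, and smaller whichever of the 5 libraries was left out. Ccr2, the chemokine receptor that brings monocytes out of the bone marrow and into tissue, had 6046, 5789 and 8004 against 726 and 639.7 (log2 fold change 3.26 ± 0.21, limma adjusted p 1.7e-09). Cx3cr1, the fractalkine receptor, had 2093, 2954 and 2478 against 106 and 61.1 (4.93 ± 0.52). Itgam, which encodes CD11b, had 9559.9, 7876 and 10139 against 885 and 353 (4.03 ± 0.34), and no MHCII-high library overlapped a control for any of these 3 genes. Csf1r, the M-CSF receptor, rose less (1.06 ± 0.18, 28221, 29969 and 29747 against 12492 and 15748). Tmem176a and Tmem176b, a pair of membrane proteins of myeloid cells, rose by 3.40 and 4.48, Ms4a6c by 3.07, and the factor XIII subunit F13a1 by 6.06. Ly6c2, a marker of classical monocytes, had 38.6, 43.4 and 17.4 against 5.8 and 0 and did not pass (limma adjusted p 0.18). Folr2 and Lyve1, which mark perivascular interstitial macrophages, overlapped between the groups, and Lyve1 ranged from 1.7 to 495 among the MHCII-high libraries. Without 1 library limma did not call F13a1 (adjusted p 0.07 without control replicate 3). A motif of the myeloid factor PU.1, searched as GAGGAAGT (reverse complement ACTTCCTC), was found in the RefSeq promoter window of 4 of 19 matched genes of this list, against 3.69% of all. Itgam, Ms4a6c and F13a1 had log2 fold changes of 3.37, 2.39 and 3.61 without control replicate 3 and 4.69, 3.75 and 8.51 without control replicate 1.

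Of 15 tested transcription factors of myeloid cells 4 rose, among them Maf (2.36 ± 0.59), Irf4 and Runx3 (4.92 ± 1.02). Irf4, which shapes antigen-presenting and alternatively activated myeloid cells, had 1568, 2410 and 1247 against 280.1 and 403 (log2 fold change 2.32 ± 0.33, limma adjusted p 0.0001). Irf8, a factor of monocyte and dendritic cell development, did not pass (1509.6, 1415 and 1433 against 1387 and 1690). None of the 8 transcription factors of alveolar macrophages passed the test. Pparg had 5547, 5569.6 and 5940 against 7262 and 5938 (log2 fold change -0.21 ± 0.16, limma adjusted p 0.63), and their median log2 fold change was -0.17. Not called by limma with 1 library left out were Maf (adjusted p 0.074 to 0.34 without MHCII-high replicate 1 or 3 or control replicate 1) and Runx3 (0.16 without control replicate 3). Runx3 had a log2 fold change of 3.9 without control replicate 3 and 5.94 without control replicate 1. Maf had a log2 fold change of 1.67 without control replicate 1 and 3.05 without control replicate 3.

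Resident alveolar macrophage genes were found in both directions. Of 19 tested, 8 fell and 2 rose, with a median log2 fold change of -0.57. Siglecf, one of the sort markers, had 3769, 3056 and 3733 against 6461 and 7034, so that every MHCII-high library lay below both controls, and it fell by 0.94 ± 0.17 on the log2 scale (limma adjusted p 0.0011). Itgax, which encodes the other sort marker CD11c, did not pass (36214, 33405 and 38614 against 29823 and 29931, log2 fold change 0.27). Marco, a scavenger receptor for inhaled particles, had 2782, 3198 and 4567 against 13347 and 9686 and fell by 1.73 ± 0.24. Fabp1, a fatty acid-binding protein, showed the largest decrease of the list, from 1426 and 1454 in controls to 216, 145 and 158 (fell by 3.07 ± 0.34, limma adjusted p 3.9e-06). Cidec, a lipid droplet protein, fell by 2.07 ± 0.26, Ear1, an eosinophil-type ribonuclease with close paralogs that make its reads uncertain, by 1.99, and the keratins Krt19 and Krt79 by 1.39 and 1.24. Ear2, another such ribonuclease, fell by 0.81. Ctsk, which encodes a collagen-degrading cathepsin, rose by 1.36 ± 0.19, and Cd200r4 rose by 0.87. Chil3, Car4, Mrc1 and Lpl, abundant in alveolar macrophages, did not pass: Chil3 had 167982, 165183 and 219199.8 against 199884 and 163234, and Mrc1 had 84662, 87127 and 89069 against 104466 and 115602. Markers of the labelled cell type were thus present in every MHCII-high library. Leaving out 1 library ended the limma calls of Ear2 (adjusted p 0.10 to 0.37 without MHCII-high replicate 1 or 2 or control replicate 1 or 3, lost also under 3 other settings) and Cd200r4 (0.06 to 0.10 without control replicate 1 or 3, lost also under 1 other setting).

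**Figure D1:**
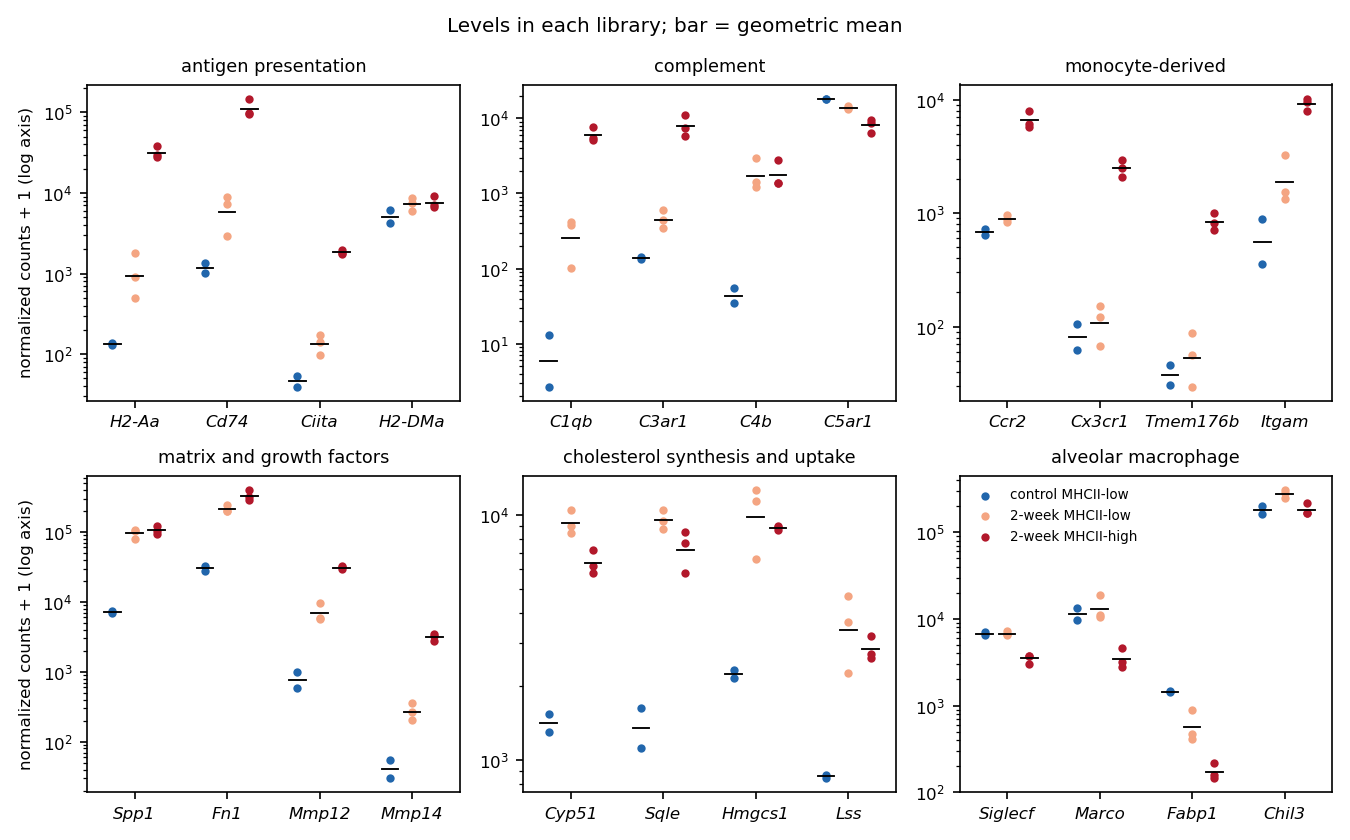
Normalized counts plus 1 (log axis) of 4 genes from each of 6 groups, with 1 point per library of control MHCII-low (blue), 2-week MHCII-low (orange) and 2-week MHCII-high cells (red) and a bar at the geometric mean. C1qb, Ccr2 and H2-Aa are highest in MHCII-high libraries, Spp1 and the cholesterol genes lie close together in both 2-week populations and above the controls, and Siglecf and Marco are lowest in MHCII-high libraries.

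Matrix and growth factor genes that mark profibrotic macrophages rose in 10 of 20 tested members, with no decrease and a median log2 fold change of 1.86. The number that rose was 7 to 11 under other settings, and below 10 whichever of the 5 libraries was left out. Spp1, which encodes osteopontin, had 92775, 103351 and 123219.6 against 6964 and 7388 (log2 fold change 3.88 ± 0.24, limma adjusted p 1.7e-09). Fn1, which encodes fibronectin, had 290029, 320203 and 393129 against 27740.5 and 32671 (3.46 ± 0.24). Every MHCII-high library lay above both controls in both genes. Mmp12, the macrophage elastase, had 31119, 29128 and 32295 against 994 and 577 (5.34 ± 0.32). Mmp14, a membrane-bound collagenase that activates other proteases, had 3229.7, 2738 and 3484 against 29.2 and 54.2 (6.26 ± 0.45, limma adjusted p 1.2e-08). The inhibitor Timp2 rose by 1.83 ± 0.20 beside these proteases, and 7 of 11 tested proteases and inhibitors rose, the others being Mmp2 (2.86), Mmp8 (1.92), Mmp19 (1.97) and Mmp25 (4.78). Among growth factors Igf1 rose from 2914 and 3244 in controls to 9884, 9341 and 12806 (1.78 ± 0.22), and Pdgfa, a mitogen of fibroblasts, rose by 3.81 ± 0.95. Tgfb1 did not pass (6911, 7065 and 7998 against 7076 and 7725, log2 fold change -0.02), while Tgfbi, a matrix protein induced by TGF-beta, rose by 1.32 ± 0.21. Limma lost, when 1 library was left out, the calls of Pdgfa (adjusted p 0.071 to 0.21 without MHCII-high replicate 1 or 3 or control replicate 1 or 3, lost also under 1 other setting) and Mmp25 (0.059 to 0.33 without any one of the 5 libraries, lost also under 2 other settings).

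Genes of the Trem2-linked, lipid-handling macrophage state rose in 6 of 14 tested members (3 to 5 without 1 of the 5 libraries, lowest without MHCII-high replicate 1 or control replicate 1, 3 with edgeR on library totals), with none lower and a median of 0.84. Apoe, the lipid carrier, had 4823, 5185 and 7878 against 44.4 and 2.6 (log2 fold change 8.83 ± 0.78, limma adjusted p 2e-07), with unlike levels in the 2 controls. Cd63, a tetraspanin of late endosomes, had 4023, 3755 and 4438 against 473 and 592 (2.94 ± 0.24). Trem2 itself had a small increase (3233, 3318 and 3226 against 1906 and 1736, 0.84 ± 0.23), and Gpnmb, a glycoprotein of lysosomes, rose by 0.84. Calls that limma lost with 1 library left out were those of Trem2 (adjusted p 0.076 to 0.29 without any one of the 5 libraries, lost also under 3 other settings) and Gpnmb (0.06 to 0.13 without MHCII-high replicate 1 or control replicate 1, lost also under 1 other setting). Apoe had a log2 fold change of 7 without control replicate 3 and 10.7 without control replicate 1.

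Chemokine receptors rose in 6 of 8 tested members (3 to 7 without 1 of the 5 libraries, lowest without control replicate 3). Beside Ccr2 and Cx3cr1, they included Ccr1 (1826, 1496 and 1984 against 775 and 513, log2 fold change 1.48), Cxcr2 (1.99) and Ccr7 (5.90), the receptor that guides dendritic cells to lymph nodes. Of 10 CC ligands 4 rose (2 to 4 without 1 of the 5 libraries, lowest without control replicate 1, 2 with a filter of 5 CPM). Ccl22, which attracts CCR4-bearing T cells, had 4454, 2942 and 3783 against 129.7 and 63.7 (5.32 ± 0.66, limma adjusted p 1.8e-05). Ccl17, which shares that receptor, had 192, 145 and 250.2 against 7.4 and 3.4 (4.98 ± 1.12), and Ccl9 rose by 1.61. Ccl8, with no read in either control, rose too, with a mean at least 19.3-fold higher. Of 10 CXC ligands 3 rose (2 to 4 without 1 of the 5 libraries, lowest without control replicate 1 or control replicate 3, 5 with DESeq2 or 4-week MHCII-high replicate 3 left out): Cxcl16, the membrane-anchored ligand of CXCR6 (3264, 2983 and 2542 against 197 and 105, 4.33 ± 0.31), Cxcl15 (2.20) and the B cell attractant Cxcl13 (5.54). Ccl2, the ligand of CCR2, had 269, 309 and 193 against 77.5 and 18.9 and did not pass (limma adjusted p 0.095). Not called by limma with 1 library left out were Ccr1 (adjusted p 0.077 without control replicate 3), Cxcr2 (0.18 without control replicate 3), Ccr7 (0.12 without control replicate 3), Ccl17 (0.15 without control replicate 3), Ccl9 (0.12 without control replicate 1), Ccl8 (0.061 to 0.17 without MHCII-high replicate 3 or control replicate 1 or 3, lost also under 2 other settings), Cxcl15 (0.086 without control replicate 1) and Cxcl13 (0.23 without control replicate 3). Ccr7 and Cxcl13 had log2 fold changes of 4.66 and 4.45 without control replicate 3 and 7.15 and 6.62 without control replicate 1.

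Inflammatory cytokines and inflammasome genes held few calls, with 2 of 11 higher, none lower and a median log2 fold change of -0.25. Il1b had 2402, 2419.9 and 1820.1 against 1044 and 424 (log2 fold change 1.72 ± 0.34). Il12b had 45.8, 126.2 and 22.6 with no read in either control. Its mean, which rested largely on MHCII-high replicate 2, was at least 25.1-fold higher. Tnf had 949, 1060 and 807 against 1297 and 1050.3 and overlapped between the groups. Receptors of growth factors and cytokines rose in 5 of 15 members (2 to 4 without 1 of the 5 libraries, lowest without control replicate 3, 2 with edgeR on library totals), among them the TNF receptor Tnfrsf1b (17851, 18322 and 20249.9 against 8878 and 9298, 1.05 ± 0.18) and the type I interferon receptor chain Ifnar1 (0.83 ± 0.17). The GM-CSF receptor chains Csf2ra and Csf2rb did not pass (log2 fold change 0.19 and 0.57, limma adjusted p 0.79 and 0.062). Leaving out 1 library ended the limma calls of Il1b (adjusted p 0.20 without control replicate 3, lost also under 1 other setting), Il12b (0.061 to 0.28 without any one of the 5 libraries, lost also under 6 other settings) and Ifnar1 (0.071 without control replicate 3, lost also under 1 other setting). Il1b had a log2 fold change of 1.07 without control replicate 3 and 2.37 without control replicate 1.

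Receptors for microbial products were called in both directions. Tlr9, which senses DNA in endosomes, had 999, 1209.9 and 1116 against 25.7 and 13.8 (log2 fold change 5.80 ± 0.82, limma adjusted p 9.2e-05). Tlr5, which senses flagellin, had 172, 141 and 239 against 1906 and 1606 and fell by 3.28 ± 0.40 (limma adjusted p 1.7e-05). Tlr13, a sensor of bacterial ribosomal RNA, rose by 1.06 ± 0.18 and the LPS co-receptor Cd14 by 0.73, while Tlr2, Tlr4 and Tlr7 overlapped between the groups. Of the 12 tested list members 3 rose and 1 fell. Tlr11, outside the list, had no read in either control and rose too, with a mean at least 24.2-fold higher. C-type lectins rose in 5 of 12 members (1 to 3 without 1 of the 5 libraries, lowest without control replicate 1 or control replicate 3, 1 with edgeR on library totals). Mgl2, a galactose-binding lectin, had 331, 288 and 222 against 0.4 and 0, the controls holding 1 read between them (limma adjusted p 0.00022), and Clec4n, which encodes dectin-2, had 8149, 8399.9 and 12115 against 4728 and 5122 (0.93 ± 0.20). Of the 6 Fc receptor genes tested, Fcgr2b, the inhibitory receptor, rose most (11936, 11629 and 15295 against 614 and 367, 4.76 ± 0.24, limma adjusted p 6.1e-11), Fcgr3 rose by 0.80, and Fcgrt, the neonatal receptor that recycles IgG, fell by 0.70. Limma lost, when 1 library was left out, the calls of Cd14 (without MHCII-high replicate 2 or control replicate 1 or 3, lost also under 1 other setting), Clec4n (without control replicate 1 or 3, lost also under 1 other setting), Fcgr3 (without MHCII-high replicate 3 or control replicate 3, lost also under 1 other setting) and Fcgrt (without MHCII-high replicate 1 or 2 or control replicate 1 or 3).

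Scavenger receptors showed 5 increases (2 to 4 without 1 of the 5 libraries, lowest without control replicate 3, 3 with voom) and 2 decreases among 10. Msr1 had 14651, 16465 and 21266 against 4308 and 5604 (log2 fold change 1.81 ± 0.25) and Colec12 had 3288, 3040 and 3604 against 229 and 129 (4.25 ± 0.42). Cd36, a receptor for oxidized lipid and fatty acids, had 5835, 4184 and 3229 against 16560.4 and 11939 and fell by 1.71 ± 0.26, beside the decrease of Marco. Genes of apoptotic cell uptake rose in 4 of 12 members (2 to 3 without 1 of the 5 libraries, lowest without control replicate 3): Mfge8, which bridges dying cells to integrins (766, 483 and 380.5 against 53.4 and 18.9, 3.99 ± 0.63), Itgb5 (1.23 ± 0.20), Stab1 (4.83 ± 0.87) and Itgav (0.79). Axl and Mertk, receptor kinases of the same process, did not pass (26027, 23286 and 27457 against 24233 and 28296 for Mertk). Of 14 integrin genes 5 rose (2 to 4 without 1 of the 5 libraries, lowest without control replicate 1, 2 with edgeR on library totals), among them Itgam, Itgb5 and the fibronectin receptor chain Itga5 (0.82 ± 0.19). Calls that limma lost with 1 library left out were those of Stab1 (adjusted p 0.065 without control replicate 3), Itgav (0.054 to 0.39 without any one of the 5 libraries, lost also under 4 other settings) and Itga5 (0.054 to 0.27 without MHCII-high replicate 2 or control replicate 1, lost also under 1 other setting). Mfge8 and Stab1 had log2 fold changes of 3.26 and 3.84 without control replicate 3 and 4.71 and 5.82 without control replicate 1.

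Type I interferon-stimulated genes rose in 7 of 22 tested members (4 to 6 without 1 of the 5 libraries, lowest without control replicate 1 or control replicate 3, 11 with DESeq2 or voom), with none lower and a median log2 fold change of 1.77. Oas2, which makes the second messenger that activates RNase L, had 1026, 1172 and 869 against 82.2 and 114 (log2 fold change 3.37 ± 0.45, limma adjusted p 3.8e-05). Ifi44 had 945, 756 and 1391 against 52.6 and 48.2 (4.28 ± 0.57), and Ifi27l2a had 343, 272 and 624 against 43.6 and 48.2 (3.05 ± 0.54). Isg15, a common marker of the response, did not pass (44.2, 50.8 and 101 against 24.9 and 31.9, limma adjusted p 0.70). None of 12 interferon-gamma-inducible genes passed, with a median of 0.24: Irf1 had 668, 551 and 496 against 627 and 539, and Cxcl9 had 232, 438 and 569 against 94.3 and 91.3 (limma adjusted p 0.14). The interferon-stimulated response element, searched as GAAA, any 2 bases and GAAA again (TTTC in the reverse complement), was found in the promoter window of 8 of 16 matched genes of the type I list, against 3.99% of all. The 8 included Isg15, which did not pass, and did not include Oas2, Ifi44 or Ifi27l2a, which may lack a window. Whether matches follow the calls was not tested. A window of 100 bases upstream of the start of Oas3 (chr5:120777680-120777779, reverse strand), the one called gene of the OAS family with this match, shows it in capitals.
Oas3: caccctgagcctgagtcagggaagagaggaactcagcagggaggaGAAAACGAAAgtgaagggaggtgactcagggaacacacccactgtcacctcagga
Oas3 had 594, 222 and 596 against 74 and 40.5 (log2 fold change 2.94 ± 0.65). Without 1 library limma did not call Oas3 (adjusted p 0.17 without control replicate 3).

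The list of cholesterol synthesis and uptake had 14 of 16 members called, all higher, with a median log2 fold change of 1.69. The number called was 13 to 14 under other settings, and smaller without at least 1 of the 5 libraries. Sqle, which oxidizes squalene, had 5788, 7666 and 8539 against 1116 and 1624 (log2 fold change 2.43 ± 0.22, limma adjusted p 2.8e-07). Cyp51, which removes a methyl group from lanosterol, had 6214, 5808 and 7234 against 1543 and 1305 (2.17 ± 0.25). Hmgcs1, an early enzyme of the pathway, had 8684, 9026 and 8907 against 2332 and 2157 (1.98 ± 0.23). For each of these 3 genes the MHCII-high libraries lay above both controls. Lss (1.73), Insig1 (1.41) and Srebf2 (1.59), the transcription factor that controls the pathway, rose too. Mvk, which encodes mevalonate kinase, did not pass (limma adjusted p 0.30). Sterol genes are switched on by SREBP2 together with NF-Y. RefSeq windows matched 9 of the 16 genes, CCAAT or ATTGG was found in 9 of 9 against 41.1% of all genes, and the sterol regulatory element, searched as TCACNCCAC (reverse complement GTGGNGTGA), in Hmgcs1 alone against 1.44%. Shown are 100 bases of Hmgcs1 with that element (chr13:119690168-119690267, forward strand) and 100 bases upstream of the starts of Lss (chr10:76531495-76531594, forward strand) and Cyp51 (chr5:4104698-4104797, reverse strand) with CCAAT or its reverse complement in capitals.
Hmgcs1: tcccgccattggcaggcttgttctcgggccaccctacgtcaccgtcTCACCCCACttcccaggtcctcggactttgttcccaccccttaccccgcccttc
Lss: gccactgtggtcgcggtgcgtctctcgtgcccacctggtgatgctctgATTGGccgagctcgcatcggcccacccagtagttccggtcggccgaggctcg
Cyp51: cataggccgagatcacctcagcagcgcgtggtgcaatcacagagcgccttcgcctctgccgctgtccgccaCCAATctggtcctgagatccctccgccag
The Lss window also reads CTGATTGG, the longer form named above for class II genes, which was found in 3 of the 9 (Idi1, Lss and Mvk).

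Fatty acid genes showed 3 increases and 1 decrease among 14. Fasn, fatty acid synthase, had 2595, 2634 and 2623 against 629 and 534 (log2 fold change 2.17 ± 0.29), Scd1, a desaturase, had 4599, 2632 and 1645 against 198 and 369 (3.32 ± 0.49), and Scd2 rose by 1.47. Targets of the oxysterol receptor LXR, which drive sterol out of the cell, held 1 increase and 1 decrease among 9, the increase being Apoe. Mylip, which encodes a ubiquitin ligase, had 1119, 682 and 1093 against 3578 and 3957 and fell by 2.00 ± 0.24 (limma adjusted p 9.6e-06). The exporters Abca1 and Abcg1 did not pass (38887, 41810.2 and 40268 against 63386 and 67223 for Abcg1, log2 fold change -0.70). Leaving out 1 library ended the limma call of Scd2 (adjusted p 0.11 without control replicate 1).

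Cathepsins and their inhibitors rose in 7 of 13 members (5 to 7 without 1 of the 5 libraries, lowest without MHCII-high replicate 3 or control replicate 1 or control replicate 3, 4 with edgeR on library totals), with a median of 1.02. Ctsb had 116625, 107480 and 117821 against 37563 and 44016 (log2 fold change 1.49 ± 0.22), and Ctse, an aspartic protease, had 3064, 2554 and 3146 against 535 and 403 (2.64 ± 0.33). Of the lysosomal genes Atp6v1a, a subunit of the proton pump, had 36176, 34398 and 40074 against 16802 and 23433 (0.89 ± 0.18), and 5 of the 18 tested genes of lysosomal membranes, enzymes and the proton pump rose (2 to 4 without 1 of the 5 libraries, lowest without control replicate 1, 3 with edgeR on library totals). The cystine importer Slc7a11 was the 1 of 10 NRF2 targets that rose (3376, 4137 and 3426 against 685 and 794, 2.30 ± 0.34). Slc2a1, the glucose transporter GLUT1, had 1646, 2089.7 and 2176 against 370.4 and 329.7 (2.48 ± 0.26, limma adjusted p 1.9e-06), while of the 14 other glycolysis genes only Hk2 passed (1.08). Of 12 p53 targets 2 rose, Trp53inp1 (1.63 ± 0.25) and Zmat3 (1.01), and Cdkn1a did not pass (6123, 6268 and 6817 against 9325 and 7421). Of 10 iron genes 3 rose (0 to 1 without 1 of the 5 libraries, lowest without control replicate 1 or control replicate 3, 1 with no filter or edgeR on library totals): the haemoglobin scavenger Cd163 (4.81), Slc11a1 (2.92) and Fth1 (0.89). Limma lost, when 1 library was left out, the calls of Atp6v1a (adjusted p 0.13 without control replicate 1), Hk2 (0.20 without control replicate 1, lost also under 1 other setting), Zmat3 (0.061 without control replicate 1), Cd163 (0.064 to 0.17 without MHCII-high replicate 1 or control replicate 1 or 3, lost also under 1 other setting), Slc11a1 (0.075 to 0.32 without any one of the 5 libraries, lost also under 2 other settings) and Fth1 (0.092 to 0.46 without MHCII-high replicate 2 or 3 or control replicate 1 or 3, lost also under 4 other settings).

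Several programmes held few or no calls. No member passed of 18 nuclear-encoded respiratory chain genes (median -0.06), 9 unfolded protein response genes (median -0.09), 12 immediate early genes (median 0.26) and 8 heat shock genes (median -0.65). The near-identical pair Hspa1a and Hspa1b, between which reads are uncertain, had 538, 480 and 202 against 1480.2 and 1839 and 148, 378 and 119.9 against 667 and 929 and missed the threshold (limma adjusted p 0.058 and 0.14). Of 20 cell cycle genes all had a negative log2 fold change (median -0.42), while 7620 of the 15805 tested genes had a positive one. Mcm2, the replication licensing factor, fell by 1.06 ± 0.29 (436, 444 and 539.5 against 945 and 1030.5). It was the 1 call of the list, a share of 5% beside 5.29% of all tested genes. The list median was -0.62 for 2-week MHCII-low cells over controls and 0.12 for MHCII-high over 2-week MHCII-low cells. Mki67 had 4883, 7976 and 11072 against 11128 and 9617 (limma adjusted p 0.56). Of 11 eicosanoid genes Ptgs1 alone rose (1.28 ± 0.27). Calls that limma lost with 1 library left out were those of Mcm2 (adjusted p 0.052 to 0.32 without any one of the 5 libraries) and Ptgs1 (0.27 without control replicate 1).

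**Figure D2:**
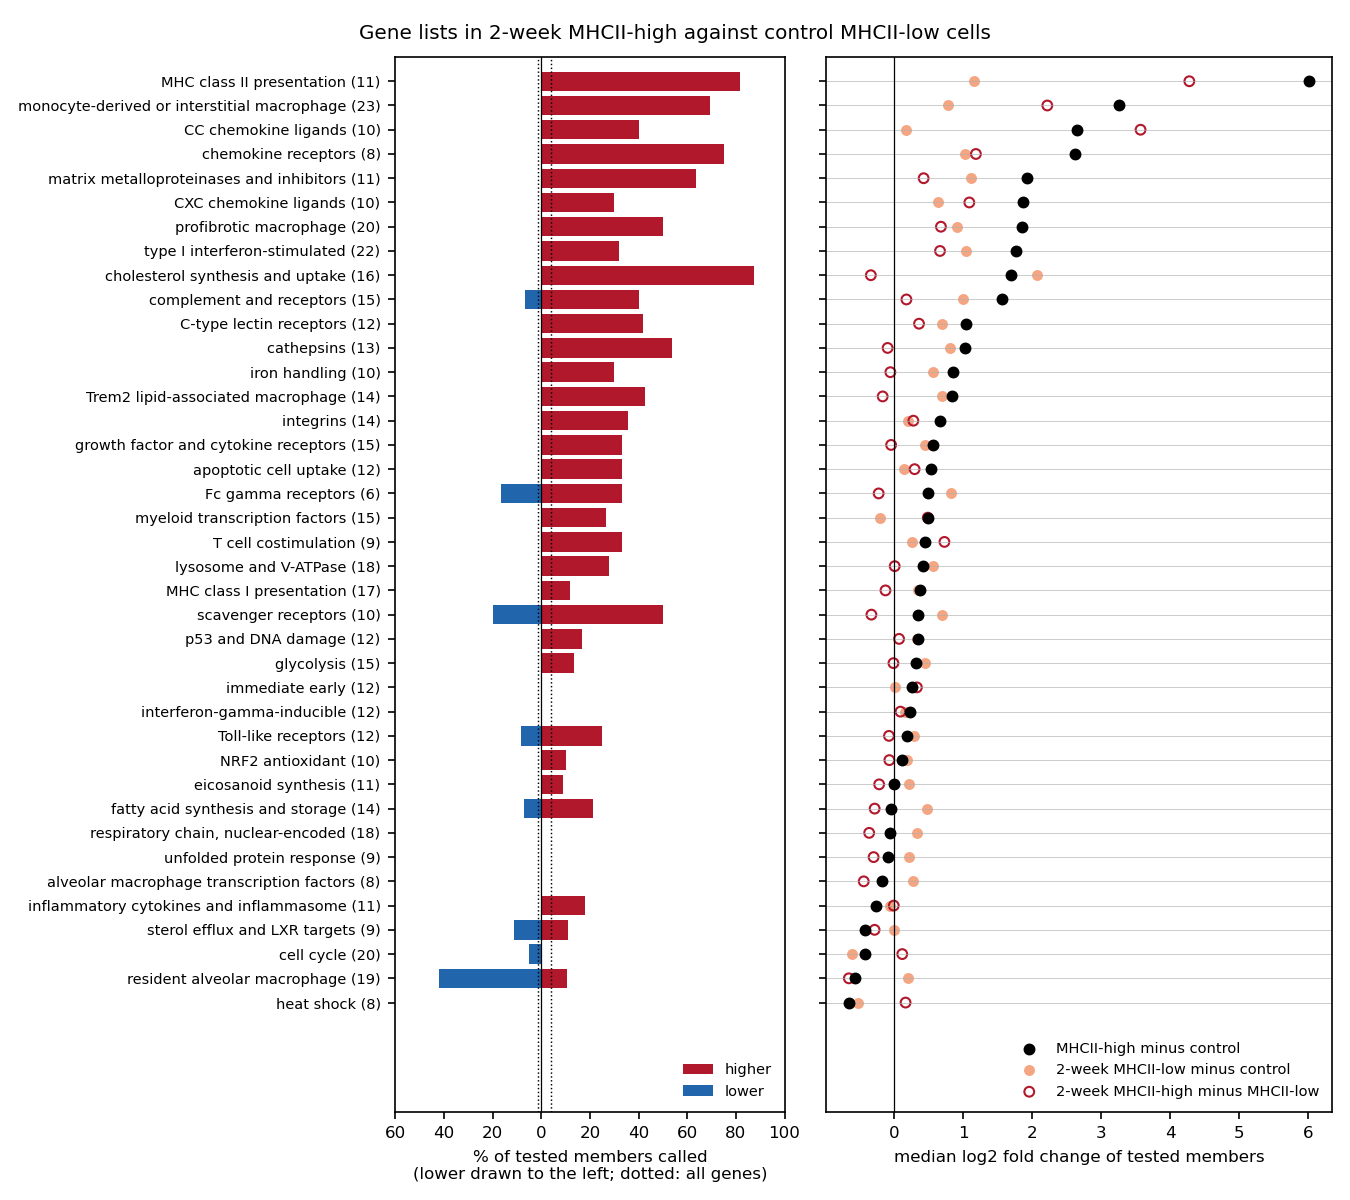
Left, the percentage of tested members of each list called higher (red) or lower (blue, to the left) in 2-week MHCII-high than in control cells, with dotted lines at the 4.04% and 1.25% of all genes and the number tested in brackets. Right, the median log2 fold change of each list for MHCII-high over control (black), 2-week MHCII-low over control (orange) and MHCII-high over 2-week MHCII-low (open red). Cholesterol synthesis is raised in both 2-week populations. The class II list is drawn at 6.01, without the lower bound for H2-Eb2 that gives 5.33 in the text.

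Outside the lists, the genes named for the size of their change include H2-M2, a non-classical class I gene of the MHC, with 3497, 1987 and 2723 against 2.3 and 0.9 (log2 fold change 10.06 ± 0.79). Blnk, an adaptor below antigen and Fc receptors, had 812, 1683 and 1311 against 17.5 and 0 (8.14 ± 0.80), and Cmklr1, the receptor for the chemoattractant chemerin, had 2898, 2961 and 2436 against 21.8 and 3.4 (8.10 ± 0.70). In these 3 genes the controls were low, and every MHCII-high library lay far above them. Among decreases, Kcnj15 (mm10 chromosome 16, 95257558 to 95300260, forward strand), an inward-rectifier potassium channel, had 3301, 1846 and 3169 against 16201 and 22873 and fell by 2.84 ± 0.30 (limma adjusted p 2.6e-06). Coro6, a coronin that binds actin, had 1746, 1059 and 1356 against 8839 and 12519 and fell by 2.95 ± 0.37. Igf2bp2, an RNA-binding protein, fell by 2.50 ± 0.38, Tppp, which binds tubulin, by 2.52 ± 0.47, and Hmcn1, a large matrix protein, by 3.62 ± 0.67. Not called by limma with 1 library left out were Hmcn1 (adjusted p 0.055 without control replicate 3) and Tppp (0.09 without control replicate 3). Blnk and Cmklr1 had log2 fold changes of 6.04 and 6.92 without control replicate 3 and 10.2 and 9.29 without control replicate 1.

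The 2-week MHCII-low cells place these changes beside a population with the same treatment. In 1 fit, 507 genes (3.21%) differed between the 2-week populations and 326 (2.06%) between 2-week MHCII-low cells and controls. The fit treated same-numbered 2-week libraries as unpaired, and their pairing was not tested. These comparisons share libraries with the main one, so values are given side by side and no overlap of calls is drawn. For some genes the 2-week MHCII-low level lay between the other groups. C1qb had 383, 100.3 and 418 there, higher than controls by 5.41 and lower than MHCII-high cells by 4.55 on the log2 scale (limma adjusted p 0.00047 and 0.00091). Apoe had 539, 229 and 1139.8, Mmp12 9596, 5917 and 5680.1 and C3ar1 438, 346 and 595, and for each of the 3 the difference from MHCII-high cells passed too (limma adjusted p 0.007, 0.00015 and 7.5e-08). For H2-Aa the 2-week MHCII-low libraries had 917, 503 and 1810.4, 2.82 above controls on the log2 scale (limma adjusted p 0.00013), although both populations were sorted as MHCII-low.

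For other genes no difference between the 2-week populations passed the test. Spp1 had 105619.8, 79824 and 101919.9 in 2-week MHCII-low libraries, with a difference of 0.15 ± 0.22 on the log2 scale between the populations (limma adjusted p 0.80). C4b had 1226, 1417 and 2960.1 there (0.02 ± 0.40), Cd63 3443, 2594 and 4241 (0.27 ± 0.21) and Slc2a1 1146, 1529 and 2177 (0.32 ± 0.23), and a difference that misses the threshold does not show that levels are equal. The cholesterol list showed this throughout: 14 of 16 members passed between 2-week MHCII-low cells and controls, none between the 2-week populations, and the median log2 difference between those was -0.34. Sqle had 9431, 8809 and 10532 in 2-week MHCII-low libraries and Cyp51 8489, 9042 and 10464.

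For a further set the 2-week MHCII-low cells did not differ from controls past the threshold. Ccr2 had 893, 834 and 963 there, against 726 and 639.7 in controls (limma adjusted p 0.43), and differed from MHCII-high cells by 2.87 ± 0.18 (limma adjusted p 1.2e-08). Cx3cr1 had 67.1, 121 and 150.3 and Tlr9 40.3, 8 and 51.8, with differences of 4.53 and 5.36 from MHCII-high cells. Irf4 had 271, 359.9 and 256, Tmem176b 87.3, 28.7 and 55.6 and Ccl17 0, 6.4 and 0, and the limma adjusted p against controls was 0.86, 0.80 and 0.58. Siglecf had 7231, 6471 and 6651 and Marco 18859, 10438 and 11013 in 2-week MHCII-low libraries, with a limma adjusted p against controls of 0.99 and 0.81 and differences of -0.95 and -1.91 between the populations (limma adjusted p 0.00086 and 2.2e-05). Tlr5, Mylip and Cd36, in contrast, were lower in 2-week MHCII-low cells too, with log2 fold changes from controls of -2.28, -1.40 and -1.33 (limma adjusted p 0.0026, 0.0018 and 0.007). Leaving out 1 library ended the limma call of Ccl17 (adjusted p 0.15 without control replicate 3).

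Markers of other cell types were detected too. Of 12 alveolar epithelial markers 5 rose and none fell, and their summed level was 12125 to 17963 normalized counts in MHCII-high libraries and 5599 and 5618 in controls. Sftpc, a surfactant protein of type II cells, had 4058, 4801 and 2746 against 169 and 39.6 (log2 fold change 5.50 ± 0.60), and Slc34a2, a phosphate transporter of these cells, 3198, 2088 and 1618 against 95.4 and 117. Of 10 tested dendritic cell markers 4 rose (2 to 4 without 1 of the 5 libraries, lowest without control replicate 3), with a sum of 1367 to 2821 against 346 and 397: Fscn1 had 842, 238 and 278 against 4.7 and 0, Flt3 260.4, 91.7 and 119 against 0 and 1.7, the controls holding 2 reads, and Ccr7 and Dpp4 were the others. Zbtb46, Xcr1 and Clec9a did not pass. Fscn1, Flt3 and Ccr7 (9.7 and 0.9 in controls) were below 10 in both controls. They entered the test only through the MHCII-high libraries, so their part of this count is no independent result. Of 9 tested B cell markers Ighd (369, 236 and 417 against 16.8 and 7.7) and Pax5 rose. Pax5 had 41.7, 70.4 and 30.4, a mean at least 18.4-fold higher, and was at 0 in controls. The B cell markers summed to 11364 to 13246 against 9827 and 10076, most of it Cd22 (9686, 9432 and 11572 against 9862 and 9687). The part of such cells or of their free RNA in the increases above was not tested. Limma lost, when 1 library was left out, the calls of Flt3 (adjusted p 0.06 without control replicate 1), Ccr7 (0.12 without control replicate 3), Dpp4 (0.0503 to 0.26 without MHCII-high replicate 1 or control replicate 3) and Pax5 (0.053 to 0.064 without control replicate 1 or 3). Sftpc had a log2 fold change of 4.47 without control replicate 3 and 6.54 without control replicate 1.

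Of 11 tested airway markers 3 fell (1 to 3 without 1 of the 5 libraries, lowest without control replicate 1 or control replicate 3, 1 with no filter or only the 5 libraries in the fit or edgeR on library totals or DESeq2) and none rose, while 5 had a positive log2 fold change and the median was -0.04. Their summed level was 1482 to 9391 in MHCII-high libraries and 14945 and 28454 in controls, where most of it was Scgb1a1. Scgb1a1, the secretory protein of club cells, had 4951, 2208 and 162 against 8983 and 18599, Cyp2f2, a cytochrome of the same cells, 2609, 966 and 176 against 2804 and 5171, and Dnah11, a dynein of motile cilia, 269, 503 and 279 against 2262 and 3125. The MHCII-high libraries differed widely among themselves in Scgb1a1. Foxj1, the factor that makes cells ciliated, did not pass (277, 57.3 and 20 against 35.1 and 82.6). Neutrophil markers (1 of 7 tested higher) summed to 7043 to 10004 against 4249 and 7860, nearly all of it Csf3r and Cxcr2, and Ly6g was at 0 in all MHCII-high libraries. The summed levels in MHCII-high and control libraries were 352 to 791 and 211 to 259 for T and NK cells, 181 to 1017 and 392 to 413 for fibroblasts, and 4021 to 7199 and 1880 to 2594 for endothelium. For eosinophils, basophils and mast cells they were 159 to 660 and 60 to 137, and for red cells and platelets 277 to 560 and 291 to 385. No tested marker of T and NK cells (8), fibroblasts (8), eosinophils, basophils and mast cells (2) or red cells and platelets (6) passed, and 1 of 10 endothelial markers did, Vwf (1.26 ± 0.25). Prg2, a granule protein of eosinophils, was at 0 in all 5 libraries, and Fcmr, Klrd1, Ncr1, Fcer1a and Loxl1 were at 0 in both controls. Calls that limma lost with 1 library left out were those of Scgb1a1 (adjusted p 0.053 to 0.27 without control replicate 1 or 3, lost also under 4 other settings), Cyp2f2 (0.081 to 0.46 without MHCII-high replicate 2 or 3 or control replicate 1 or 3, lost also under 6 other settings) and Vwf (0.071 without control replicate 3). Scgb1a1 had a log2 fold change of -4.43 without MHCII-high replicate 1 and -1.97 without MHCII-high replicate 3.

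**Figure D3:**
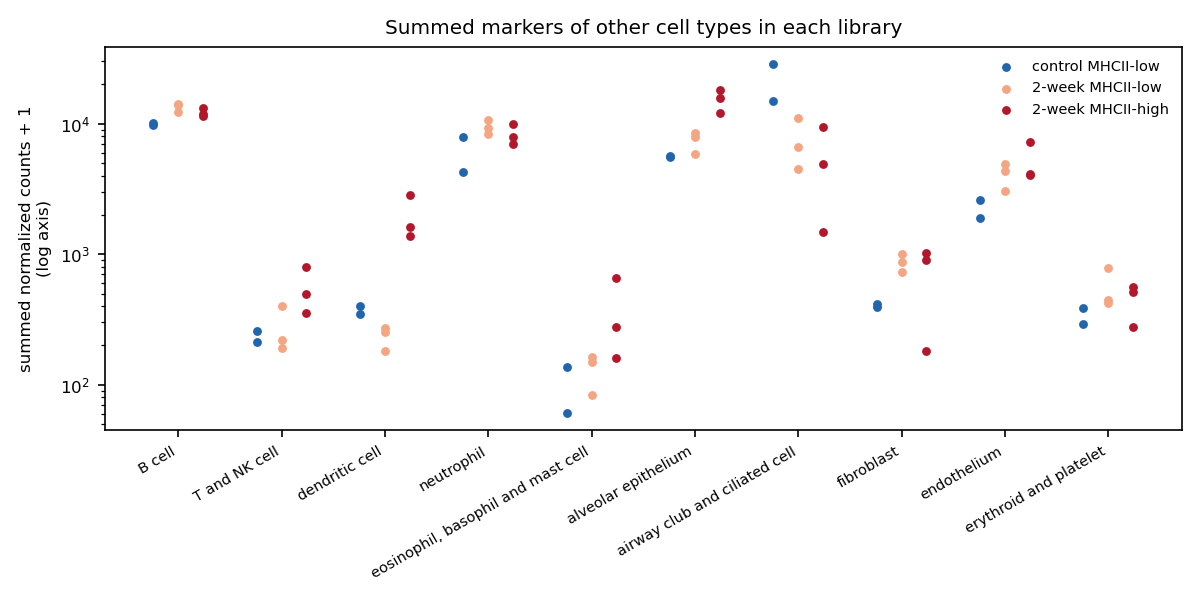
Summed normalized counts plus 1 (log axis) of the markers of 10 other cell types, with 1 point per library of control MHCII-low (blue), 2-week MHCII-low (orange) and 2-week MHCII-high cells (red). The dendritic and alveolar epithelial sums are highest in the MHCII-high libraries. The airway sum is highest in the controls, where most of it is Scgb1a1.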

How the data were processed

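The authors deposited normalized counts (.norm columns, per the file headers) of 43432 mouse genes in 14 libraries, which are signal values rounded to 1 decimal. STAR, DESeq2 and mm10 are named, per the submitters' processing notes, with no roles, and the counter and annotation are not stated. At least 99.5% of low values were whole multiples of 1 step per library within 0.05, which recovered reads. GC percent per gene is also the authors', per the file headers. Genes with at least 10 normalized counts in 2 of 5 libraries were tested with limma 3.58.1 (R 4.3.3, trend, log2 with pseudocount 1) on all 14 libraries, with Benjamini-Hochberg adjustment at 0.05. Alternatives used edgeR 4.0.16, DESeq2 1.42.0 and voom on recovered reads, other filters and pseudocounts, covariates and left-out libraries, and fits were tested on simulated data. Replicates differed beyond sampling noise (chi-square per gene 71.6 to 100.7). Deviations of same-numbered MHCII-high and control libraries correlated at 0.05 and 0.04. With 2 controls, whose deviations mirror each other, this cannot decide whether replicate numbers pair libraries. Pairing of the 2-week populations was not tested. Named genes are the 10 largest called increases and decreases with no overlap and a mean log2(CPM + 1) from 3 upwards, all class II and sort genes, and up to 3 members per list by p, with others to account for a list. Members and lists were chosen with earlier results of these data known. Promoter windows are from RefSeq (GRCm38.p6). Some genes counted in the lists are not reported here by name.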

Additional observations from a re-analysis of the deposited data

How the results depend on the processing

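The 836 calls became 581 to 1212 under changes of filter, pseudocount, scaling, tool or covariate (829 with no filter, 710 with edgeR and TMM, 1169 with DESeq2, 897 with a pseudocount of 5, 910 with the GC trend removed), and 959 (174 list genes) without 4-week MHCII-high replicate 3. Leaving out 1 of the 5 libraries gave 379 to 615 calls, 464 without control replicate 1 and 379 without control replicate 3. Of the 163 called genes in lists, 105 (93 higher and 12 lower) were called without control replicate 3, and the range over the 5 libraries was 105 to 139. Where a control was left out, the lone control was assumed to vary like the other groups. With the replicate number as a block, 807 genes (627 higher, 180 lower) and 164 list genes were called. What same-numbered libraries share beyond a label is not stated, and the main comparison has only 2 pairs. Of 157 named genes 109 were called, and 70 of these were called in every setting in which they were tested. The calls of 39 were lost without at least 1 of the 5 libraries, 5 of them (H2-K1, Cd40, Il12b, Mcm2 and Slc11a1) without any one, and 18 were lost under some other setting. None reversed. The 2 control libraries limit precision most.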

Other observations

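Several genes outside the lists, chosen here after their values were seen, belong to signalling from diacylglycerol, a lipid messenger made below immune receptors. Rasgrp1, which activates Ras on this signal, had 3256, 4951 and 3294 normalized counts in MHCII-high libraries against 93.9 and 43.9 in controls (log2 fold change 5.85 ± 0.41, limma adjusted p 8.3e-09). Its relative Rasgrp3 had 1659.9, 1407 and 1854 against 112 and 74.9, and Prkcb, a protein kinase C, had 1369.7, 1461 and 1370.1 against 97 and 75.8. In 2-week MHCII-low libraries these genes had 224, 202 and 196, 213, 129 and 130.5 and 107, 74.8 and 217. Sema4d, a semaphorin, rose by 3.52 ± 0.33, and Plxnb2, one of its plexin receptors, by 4.32 ± 0.35. Hal, the enzyme that turns histidine into urocanate, had 4379, 4529 and 5880 against 274 and 353.

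Others were high in both 2-week populations: Nrp2, a receptor for semaphorins and VEGF, had 23387, 20870.3 and 25916 in MHCII-high, 21537, 21338 and 23877 in MHCII-low and 4323 and 4924 in control libraries. Ifitm2, an interferon-induced membrane protein, had 2889, 1995 and 3228, 3222, 2167 and 2969 and 699 and 473. Among decreases, Patj, a scaffold of cell polarity, fell by 2.01 ± 0.21 (1129, 1312 and 1118 against 5733 and 3970.5), Ccnd2, which encodes cyclin D2, by 1.61 ± 0.25, and Gpd1, an enzyme that joins glycolysis to lipid synthesis, by 1.91 ± 0.30.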
